A study of Rattus norvegicus with 192 samples.

Results

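The libraries described here are 71 nucleus accumbens core samples of outbred heterogeneous stock rats in which little cortical transcript was found. They were 50 libraries whose rat identifier starts with E21 (E21 libraries) and 21 whose identifier is all digits (numeric libraries), out of 159 libraries in the deposited expression table and 192 in the labels. Libraries were chosen by measured values. A library was kept if the D1 dopamine receptor gene Drd1 stood at 100 CPM (expected counts per 1000000) or more and Slc17a7, the vesicular glutamate transporter of cortical projection neurons, under 200 CPM. Libraries whose label the submitters had corrected were left out of the comparison. PolyA RNA was sequenced in all groups. No treatment, time point, age, sex or batch is named in the labels of either identifier format, so the formats name sets of rats and libraries and no known condition. Each library carries its own rat identifier and was counted as 1 rat, and the highest correlation between any pair of the 71 libraries was 0.993.

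The accumbens core is a ventral striatal region made mostly of GABAergic medium spiny neurons, which carry either D1 or D2 dopamine receptors. Glutamatergic cortical neurons, marked by Slc17a7, lie around the striatum and are not part of it, so their transcripts report how much neighbouring tissue a dissected sample holds. PolyA selection is meant to leave out ribosomal RNA and other transcripts without a polyA tail. In bulk tissue, fewer cells of a type and less RNA per cell cannot be told apart.

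The rule fixed the range of Slc17a7 and the floor of Drd1, so these 2 genes are described without a test. Slc17a7 ran from 1.92 CPM over a median of 48.8 to 171 CPM in E21 libraries, and from 7.26 over 95.3 to 199.97 CPM in numeric libraries. The 3 libraries just inside the limit, at 196.0, 197.0 and 199.97 CPM, were all numeric. The nearest outside stood at 205 CPM (numeric), 211 CPM (E21) and 227 CPM (numeric). Drd1 averaged 364.7 ± 46.9 CPM in E21 libraries (SD, n = 50) and 347.6 ± 38.8 CPM in numeric libraries (SD, n = 21). Drd1 left a wide gap, as the lowest level that met its limit was 154 CPM and the highest that did not was 20.0 CPM. The summed level of 10 cortical projection neuron genes was also unequal, at 28.4 to 132 CPM with a median of 62.1 in E21 libraries and at 38.9 to 144 CPM with a median of 83.3 in numeric libraries. Under the limit on Slc17a7 the formats therefore still differed in cortical transcript. Among libraries that met the Drd1 limit but held Slc17a7 at 200 CPM or more, the medians of Slc17a7 lay relatively closer. They were 347 CPM in E21 libraries (n = 26) and 404 CPM in numeric libraries (n = 35).

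**Figure D1:**
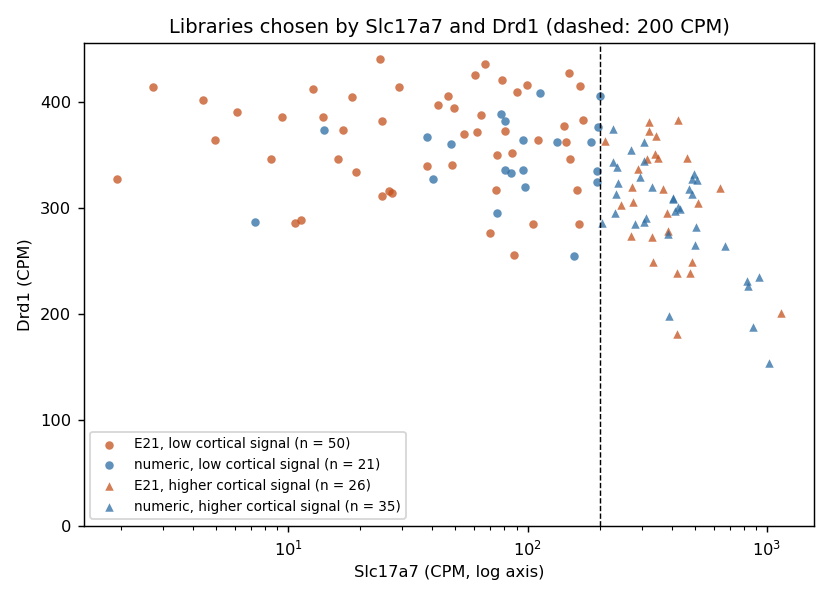
Drd1 against Slc17a7 (CPM, log axis) in 76 E21 libraries (orange) and 56 numeric libraries (blue), with circles under the 200 CPM limit on Slc17a7 (dashed line) and triangles above it. Below the limit, E21 libraries reach down to 1.92 CPM of Slc17a7 and numeric libraries to 7.26 CPM, while Drd1 overlaps between the formats.

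Total expected counts averaged 22.9 ± 5.63 M in E21 libraries (SD, range 15.7 to 53.4 M, M standing for 1000000) and 26.8 ± 7.02 M in numeric libraries (SD, range 21.2 to 51.5 M). Xist, the X-inactivation RNA, was over 100 CPM in 29 of 50 E21 libraries and in 8 of 21 numeric libraries. Genes varied more among E21 libraries, with a median log2 SD of 0.228 against 0.18 among numeric libraries. An SD of at least 0.5 was found for 636 genes in E21 libraries and for 327 genes in numeric libraries.

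Genes had to average 1 CPM or more over the 71 libraries to be tested, which 15282 did. Of these, limma called 681 at an adjusted p under 0.05, which is 4.46% of those tested. In E21 libraries 169 genes were higher (1.11%) and 512 lower (3.35%). Most changes were small, with a median log2 change of 0.17 among the genes called higher and -0.19 among those called lower, and 25 genes (0.164%) changed by at least 0.5. The split depended on scaling. With median-of-ratios size factors in place of total counts, 265 genes were higher and 263 lower, while the median over all genes moved by only 0.02 on the log2 scale. With the cortical score of each library as a covariate, 277 genes were called (1.81%), of which 90 were higher (0.589%) and the others lower (1.22%). That score is the mean standardised level of 9 cortical genes, and 80 of the 169 rises and 177 of the 512 falls kept their call beside it.

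Transcripts of the ribosomal RNA locus led the rises. Of 7 ribosomal RNA genes tested, 4 rose and none fell, against the background of 1.11% of all genes. Rn45s, the precursor from which the 18S, 5.8S and 28S ribosomal RNAs are cut, lies on chromosome 11 in the deposited table, whose build is not named. It ran from 12.1 over a median of 71.5 to 398 CPM in E21 libraries and from 14.3 over 24.5 to 46.9 CPM in numeric libraries. The groups overlapped in the lower part of the E21 range, and 30 of 50 E21 libraries stood above the highest numeric library. Rn45s rose by 1.24 on the log2 scale (SE 0.27, limma adjusted p = 0.00476). Rn28s, the 28S ribosomal RNA, had a median of 1154 CPM in E21 libraries and 480 CPM in numeric libraries, and rose by 0.75 (limma adjusted p = 0.00890). Among the locus-number genes annotated as ribosomal RNA, LOC120099695 had a median of 2193 CPM in E21 libraries, against 838 CPM in numeric libraries (log2 change 1.24), and LOC120093067 one of 4070 CPM, against 1707 CPM (log2 change 0.72). Reads of these near-identical genes can be shared between them, so their levels are not independent. LOC120093067 lost its call beside the cortical score.

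As a share of all expected counts, the 159 ribosomal RNA genes in the table held 1.00 ± 0.569% in E21 libraries (SD, n = 50) and 0.501 ± 0.276% in numeric libraries (SD, n = 21). The E21 libraries fell in 2 sets with no library between 0.609% and 0.879%, of which 19 lay below and 31 above. In numeric libraries 4 lay within that gap. A total of 17 E21 libraries exceeded the numeric maximum of 1.24%. Rn7sl1, the 7SL RNA of the signal recognition particle and a polymerase III transcript, ran from 1.61 over 8.80 to 21.9 CPM in E21 libraries and from 1.26 over 4.03 to 15.7 CPM in numeric libraries. The groups overlapped over most of their range, and the rise of 0.71 was close to the threshold (SE 0.22, limma adjusted p = 0.0482). It lost its call beside the cortical score (limma adjusted p = 0.138), with median-of-ratios scaling and with ribosomal RNA genes left out of the total.

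The widest difference among all genes called belonged to a pseudogene. Rps14-ps7, annotated as a transcribed pseudogene and placed on chromosome 5 in the deposited table, ran from 0 over 38.0 to 111 CPM in E21 libraries and from 50.7 over 83.2 to 181 CPM in numeric libraries. In 32 of 50 E21 libraries it lay below the lowest numeric library, and the other 18 overlapped with the numeric range. It fell by 2.06 on the log2 scale (SE 0.47, limma adjusted p = 0.00619). Other copies moved in both directions. Of 402 genes whose symbol marks a copy or pseudogene, 9 rose and 14 fell, or 5.72% against 4.46% of all genes. Ybx1-ps20, a copy of the RNA-binding protein gene Ybx1, had a median of 5.58 CPM in E21 libraries and 12.3 CPM in numeric libraries and fell by 0.81 (limma adjusted p = 0.0112), whereas Ybx1l1, another copy, had 7.96 CPM in E21 libraries and 5.47 CPM in numeric libraries and rose by 0.54 (limma adjusted p = 0.0119).

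Cox7a2l2, a copy of a cytochrome oxidase subunit gene, ran from 3.81 over 15.1 to 54.8 CPM in E21 libraries and from 0.736 over 5.32 to 18.6 CPM in numeric libraries. It rose by 1.07 (SE 0.23, limma adjusted p = 0.00341), and 18 E21 libraries exceeded every numeric library. Rpl37, a ribosomal protein gene, ran from 1.44 over 10.9 to 60.8 CPM in E21 libraries and from 2.22 over 5.80 to 14.6 CPM in numeric libraries, and rose by 0.97 (SE 0.26, limma adjusted p = 0.0187). Again 18 E21 libraries were above the numeric maximum. Actg1l1, Rps13l1, Rpl10l1, Rps12l2 and Rps19l3, copies of an actin gene and of 4 ribosomal protein genes, also rose, by 0.35 to 0.54, from medians under 2 CPM in both formats. Beside the cortical score Actg1l1, Rps12l2, Rps19l3 and Ybx1l1 lost their call. Counts of all these genes are estimates from reads that near-identical sequences share, so their levels are uncertain, and on the log2(CPM + 1) scale the changes of the low ones are understated.

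**Figure D2:**
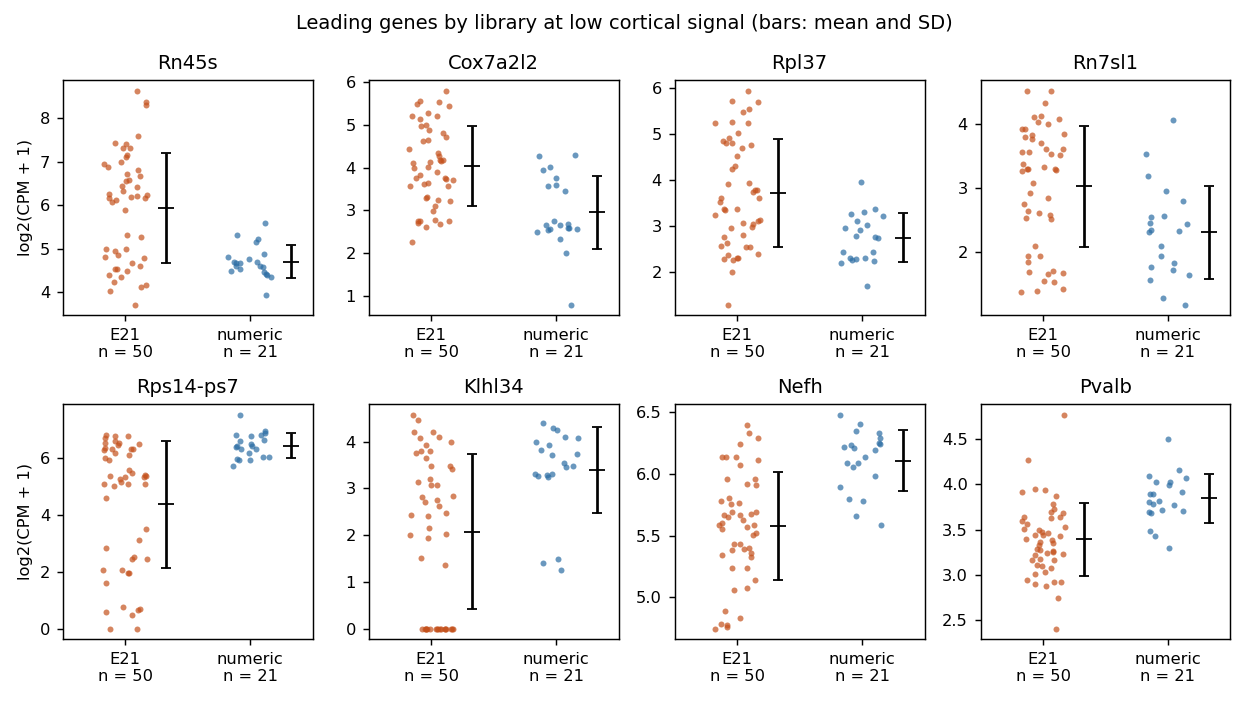
Levels of 8 genes, log2(CPM + 1), in each of 50 E21 libraries (orange) and 21 numeric libraries (blue) at low cortical signal, with mean and SD as bars. Rps14-ps7 falls in 3 sets among E21 libraries, the highest of which overlaps the numeric libraries, and Klhl34 has a set at or near 0 in E21 libraries.

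The high Rn45s and low Rps14-ps7 levels occurred in the same libraries. All 30 E21 libraries with Rn45s above the numeric maximum were among the 32 with Rps14-ps7 below the numeric minimum. The 18 libraries with Cox7a2l2 above the numeric maximum and the 18 with Rpl37 above it shared 17 libraries, and each set lay within those 32. In 15 E21 libraries all 4 genes lay outside the numeric range on these sides, and in 18 libraries none did. The other 17 libraries were outside on some of the 4 genes. By the level of Rps14-ps7 the E21 libraries fell in 3 sets, a division made with the values known. In 18 libraries it lay between 0 and 10.4 CPM, and of these 16 exceeded the numeric maximum of Rn45s, 17 that of Cox7a2l2 and 18 that of Rpl37. In 14 libraries it lay between 23.0 and 46.2 CPM, and of these 14 exceeded the maximum of Rn45s, 1 that of Cox7a2l2 and 0 that of Rpl37. In the remaining 18 libraries it lay between 59.9 and 111 CPM, within the numeric range, and none exceeded any of the 3 maxima. Rps14-ps7 was below the numeric minimum in 13 of 18 libraries with identifiers starting E21DCD36 and in 19 of 32 starting E21DCD37. The same pairing was present at higher cortical signal, where Slc17a7 was 200 CPM or more. There Rn45s exceeded the numeric maximum in 18 of 26 E21 libraries, which included all 16 libraries with Rps14-ps7 below the numeric minimum.

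Libraries with a corrected or other label that met the same limits entered no test. Rn45s was 20.0 and 27.6 CPM in the 2 libraries corrected to the E21 format, and 55.8 and 138 CPM in the 2 libraries whose identifier starts with AA1. Rps14-ps7 was 87.8 and 91.5 CPM in the corrected E21 libraries and 0.456 and 5.48 CPM in the AA1 libraries. The corrected libraries thus lay within the numeric range for both genes, and the AA1 libraries outside it for both.

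**Figure D3:**
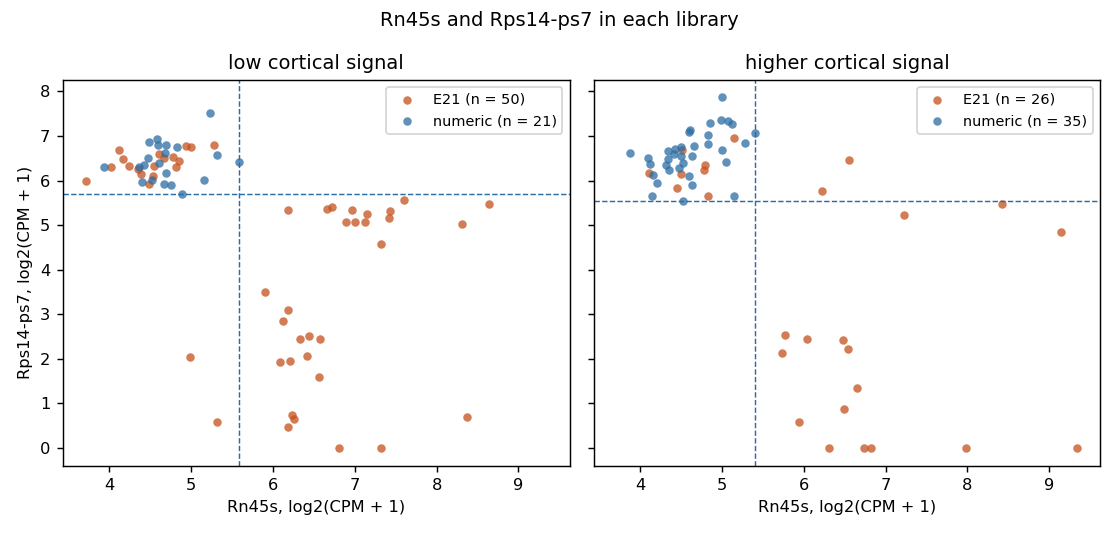
Rps14-ps7 against Rn45s, both as log2(CPM + 1), in E21 libraries (orange) and numeric libraries (blue) at low (50 and 21 libraries) and higher cortical signal (26 and 35 libraries). Dashed lines mark the numeric maximum of Rn45s and minimum of Rps14-ps7, and the lower right field holds 30 E21 libraries on the left and 16 on the right.

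Among single protein-coding genes, those that are no copies, ribosomal protein genes or noncoding RNAs, the falls were led by Klhl34, a kelch-family gene on the X chromosome. It ran from 0 over 4.48 to 22.9 CPM in E21 libraries and from 1.40 over 10.6 to 20.1 CPM in numeric libraries. In 17 E21 libraries it lay below the numeric minimum. It fell by 1.33 (SE 0.37, limma adjusted p = 0.0258). Most of those 17 libraries had Rps14-ps7 between 0 and 10.4 CPM, and the others had it within the numeric range. In E21 libraries with Rps14-ps7 between 23.0 and 46.2 CPM, Klhl34 stood at 4.41 CPM or more. The fall is therefore not shown to be separate from the pattern of Rps14-ps7. Levels of 0 were not confined to the E21 format. At higher cortical signal Klhl34 ran from 0 over 5.72 to 18.3 CPM in numeric libraries and from 0 over 3.10 to 22.5 CPM in E21 libraries.

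Genes of neuronal intermediate filaments fell together. Nefh, Nefm and Nefl encode the heavy, medium and light neurofilament subunits that fill large axons, and Prph encodes peripherin, which joins them. Nefh ran from 25.9 over 47.4 to 83.0 CPM in E21 libraries and from 47.1 over 72.2 to 88.1 CPM in numeric libraries. In 25 of 50 E21 libraries it lay below every numeric library, and it fell by 0.53 on the log2 scale (SE 0.10, limma adjusted p = 0.00103). Of these 25 libraries, 18 were among the 32 of 50 with Rps14-ps7 below the numeric minimum. Most of those 18 had Rps14-ps7 between 0 and 10.4 CPM, and few had it between 23.0 and 46.2 CPM. The others of the 25 had it within the numeric range. With Rn45s above the numeric maximum, 17 of the 25 were among 30 such libraries. The fall is therefore not shown to be separate from the pattern of those genes. Nefm ran from 38.0 over 84.7 to 145 CPM in E21 libraries and from 80.9 over 122 to 164 CPM in numeric libraries, and fell by 0.52 (limma adjusted p = 0.00666). Nefl had a median of 268 CPM in E21 libraries and 304 CPM in numeric libraries and fell by 0.27, and Prph had 1.44 CPM in E21 libraries and 2.80 CPM in numeric libraries and fell by 0.62. Ina, the fifth filament gene, did not pass the threshold. The count was 4 of 5 filament genes lower and none higher, beside 3.35% of all genes lower, and their median log2 change was -0.52 beside -0.02 for all genes. This list was added after the values were seen. With the cortical score as a covariate the median was -0.29 and Nefh alone kept its call, at -0.44 (limma adjusted p = 0.0106).

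Some markers of fast-spiking interneurons fell. Pvalb, the calcium-binding protein parvalbumin, ran from 4.30 over 9.37 to 26.3 CPM in E21 libraries and from 8.82 over 13.0 to 21.5 CPM in numeric libraries. In 22 E21 libraries it lay below the numeric minimum, and it fell by 0.45 (SE 0.09, limma adjusted p = 0.00265). Lhx6, a transcription factor of interneurons from the medial ganglionic eminence, had a median of 20.1 CPM in E21 libraries and 21.5 CPM in numeric libraries and fell by 0.21 (limma adjusted p = 0.0275). Both kept their call with the cortical score as a covariate, at -0.34 for Pvalb and -0.24 for Lhx6. Kcnc2, a potassium channel of the Kv3 family that lets neurons fire fast, fell by 0.38, Kcnab3, a potassium channel beta subunit, by 0.39, and Hapln4, a link protein of perineuronal nets, by 0.48. None of these 3 kept its call beside the cortical score. Of 12 genes of fast-spiking neurons and perineuronal nets, 4 were lower, beside 3.35% of all genes, and none higher, with a median of -0.18. Beside the cortical score 1 of the 12 was lower. This list too was added after the values were seen. Of 9 GABA interneuron markers tested, Pvalb and Lhx6 were the only ones called. With median-of-ratios scaling, log2 depth as covariate or Slc17a7 under 100 CPM, 1 of the 9 was called lower and 0 higher. With quantile scaling 1 was lower and 1 higher.

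Several neuronal genes, most of them of low level, fell and lost their call beside the cortical score. Slc17a6, the vesicular glutamate transporter of thalamus and other subcortical neurons, ran from 0.244 over 1.59 to 5.83 CPM in E21 libraries and from 0.785 over 3.66 to 7.58 CPM in numeric libraries. It fell by 0.76 (SE 0.17, limma adjusted p = 0.00476), and the estimate beside the cortical score was -0.39 (limma adjusted p = 0.0605). Prss12, the secreted synaptic protease neurotrypsin, had a median of 1.98 CPM in E21 libraries and 4.21 CPM in numeric libraries. It fell by 0.76, with an estimate of -0.29 beside the cortical score. Kcnj6, the GIRK2 potassium channel, fell by 0.55, Htr1a, the serotonin 1A receptor, by 0.50, and Sstr3, a somatostatin receptor, by 0.48, and beside the score they stood at -0.19, -0.17 and -0.20. Sidt1 and Plcxd2 fell by 0.57 and 0.50 and likewise lost their call. At higher cortical signal, where 30% of all genes were called lower, limma also called 5 of these 7 genes lower. They were Slc17a6 (-0.40), Prss12 (-0.45), Kcnj6 (-0.51), Sstr3 (-0.40) and Plcxd2 (-0.46). Htr1a (-0.16) and Sidt1 (-0.27) were not called there. The summed level of the cortical list, given above, was lower in E21 libraries too and was not tested, since Slc17a7 chose the libraries.

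**Figure D4:**
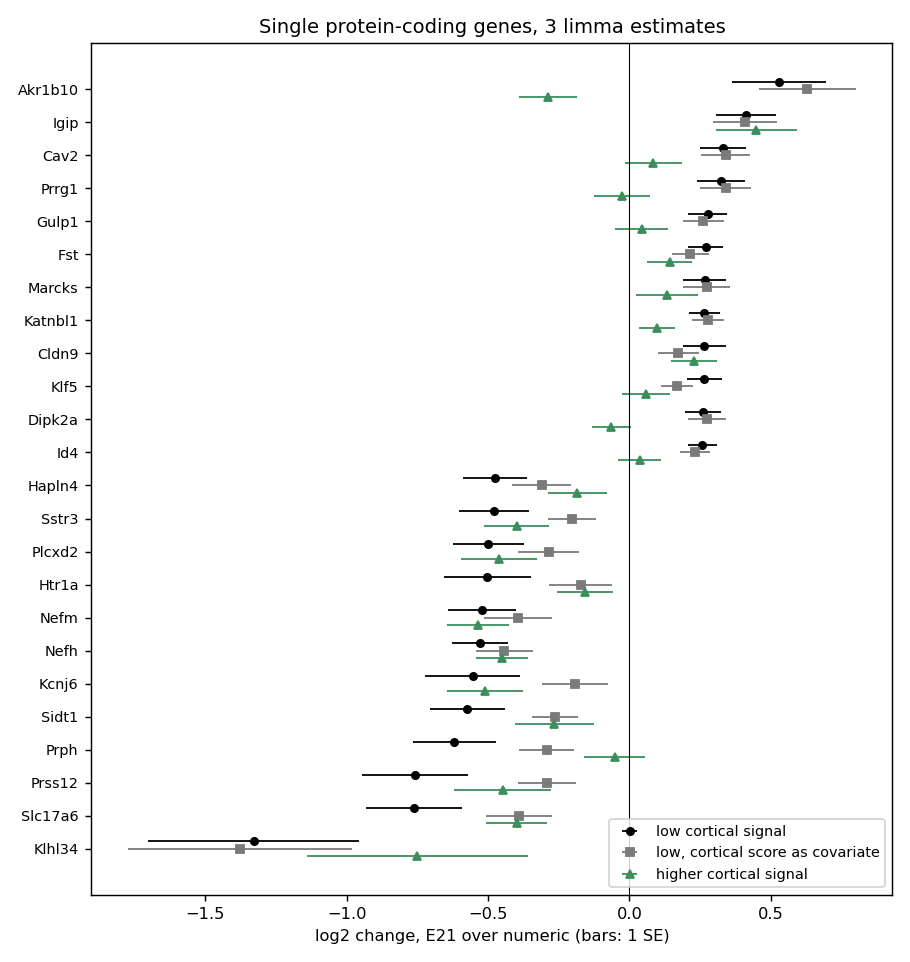
Log2 change, E21 over numeric, with 1 SE, of the 12 single protein-coding genes that rose most and the 12 that fell most at low cortical signal (circles), beside the estimate with the cortical score as covariate (squares) and at higher cortical signal (triangles). Slc17a6 lies at -0.76, -0.39 and -0.40, Nefh at -0.53, -0.44 and -0.45, and Akr1b10 is positive in the first 2 estimates and negative in the third.

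Rises of single genes were smaller. Akr1b10, an aldo-keto reductase, ran from 17.6 over 35.8 to 51.5 CPM in E21 libraries and from 4.99 over 26.5 to 46.8 CPM in numeric libraries and rose by 0.53 (SE 0.17, limma adjusted p = 0.0483). The low values were on the numeric side, where the log2 SD was 1.02 against 0.43 in E21 libraries. Igip, an IgA-inducing protein gene, ran from 17.0 over 29.9 to 108 CPM in E21 libraries and from 14.6 over 24.9 to 34.9 CPM in numeric libraries. It rose by 0.41 (limma adjusted p = 0.0156), with 16 E21 libraries above the numeric maximum. Id4, an inhibitor of basic helix-loop-helix transcription factors, had a median of 82.2 CPM in E21 libraries and 69.9 CPM in numeric libraries and rose by 0.26 (SE 0.05, limma adjusted p = 0.00146). Katnbl1, a katanin regulatory subunit, had 13.5 CPM in E21 libraries and 11.3 CPM in numeric libraries and rose by 0.26 (limma adjusted p = 0.00265), with 18 E21 libraries above the numeric maximum. Cav2 (caveolin 2), Prrg1, Gulp1 (an adaptor for engulfment of dying cells), Fst (follistatin), Marcks, Cldn9, Klf5 and Dipk2a rose by 0.26 to 0.33. Of these 12 genes, Fst, Marcks, Cldn9 and Klf5 lost their call beside the cortical score and the other 8 kept it.

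Medium spiny neuron genes showed no call in either direction. None of 7 D1 neuron genes, none of 6 D2 neuron genes and none of 14 genes shared by both passed limma's threshold, with list medians of -0.01, 0.07 and 0.04 beside -0.02 for all genes. Their summed levels overlapped widely. The shared list held 8619 to 11799 CPM in E21 libraries with a median of 10184, and 9064 to 11148 CPM in numeric libraries with a median of 9996. With median-of-ratios scaling 1 D2 gene was called higher. A gene that missed the threshold is not shown to be equal between the formats.

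Lists of other cell types and states are given beside the 4.46% of all genes called, a share at which lists of this size hold few calls. No gene was called among 11 oligodendrocyte, 7 oligodendrocyte precursor, 10 astrocyte, 11 microglia, 7 endothelial, 6 cholinergic interneuron or 16 immediate early genes. Among vascular mural genes, Myh11, the smooth muscle myosin heavy chain, fell by 0.43 (limma adjusted p = 0.0499), as the only one of 7. Calb1 (calbindin) rose by 0.22 (limma adjusted p = 0.0355), as the only one of 12 position markers of the ventral striatum. Synpr (synaptoporin) rose by 0.18 and Gng2, a G protein subunit, fell by 0.23, both from a list of 5 claustrum genes. Of 12 glucocorticoid-responsive genes, Zbtb16 and Klf9 fell, by 0.42 and 0.32. Among 6 dopamine and opioid receptor genes, Oprl1, the nociceptin receptor, ran from 15.1 over 25.7 to 33.4 CPM in E21 libraries and from 20.3 over 30.3 to 41.6 CPM in numeric libraries and fell by 0.26 (limma adjusted p = 0.0129). Of 14 heat shock genes, Hsp90aa1 fell by 0.25. Beside the cortical score Synpr alone of these 8 genes kept its call, and Calb1 (0.14) and Gng2 (-0.09) moved most.

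Genes of ribosome assembly and splicing held more falls than the 3.35% of all genes, by small amounts. Of 70 genes for nucleolar ribosome assembly proteins, 16 fell and none rose, with a list median of -0.07 beside -0.02 for all genes. Nop56 and Nop58, core proteins of box C/D ribonucleoproteins that methylate ribosomal RNA, fell by 0.14 (limma adjusted p = 0.00341) and 0.17 (limma adjusted p = 0.00546). Nop56 had a level of 48.5 ± 3.38 CPM in E21 libraries (SD, n = 50) and 53.6 ± 5.06 CPM in numeric libraries (SD, n = 21). Rrp1 fell by 0.17 and Lyar by 0.21. Of 63 spliceosome genes, 12 fell and none rose, among them Cdc5l by 0.16 (limma adjusted p = 0.00126), Snw1 by 0.22, Prpf40b by 0.21 and Zrsr2 by 0.19. Of 20 cytosolic aminoacyl-tRNA synthetase genes, which load amino acids onto tRNA, 7 fell and none rose, among them Aars1, by 0.13, and Eprs1, by 0.15. These 3 lists hold whole families but were added after the values were seen, so their counts are a description. In the order given, the falls numbered 11, 9 and 3 with median-of-ratios scaling, 14, 12 and 4 beside the cortical score, and 9, 6 and 0 with both together. With Slc17a7 under 100 CPM they numbered 7, 6 and 2. Falls among all genes became fewer under these settings too, so these counts are not to be read beside the 3.35%. From 512 in the main comparison, falls among all genes went to 263 with median-of-ratios scaling and to 89 with both together. Beside the cortical score they made up 1.22% of all genes, and with Slc17a7 under 100 CPM they numbered 132.

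Ribosomal protein, respiratory chain and proteasome genes are given beside the 4.46% of all genes called. Of 77 cytosolic ribosomal protein genes, Rpl37 rose and Rpl21 fell, by 0.25, and the list median was -0.03. Of 25 nuclear-encoded cytochrome oxidase and ATP synthase genes, Cox7a2 and Atp5me fell, by 0.21 and 0.25, and none of 36 complex I genes was called. Of 31 proteasome genes, Psmc1, Psmc2 and Psmd12 fell, by 0.10 to 0.11. Beside the cortical score Rpl37 alone of these 7 genes kept its call.

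**Figure D5:**
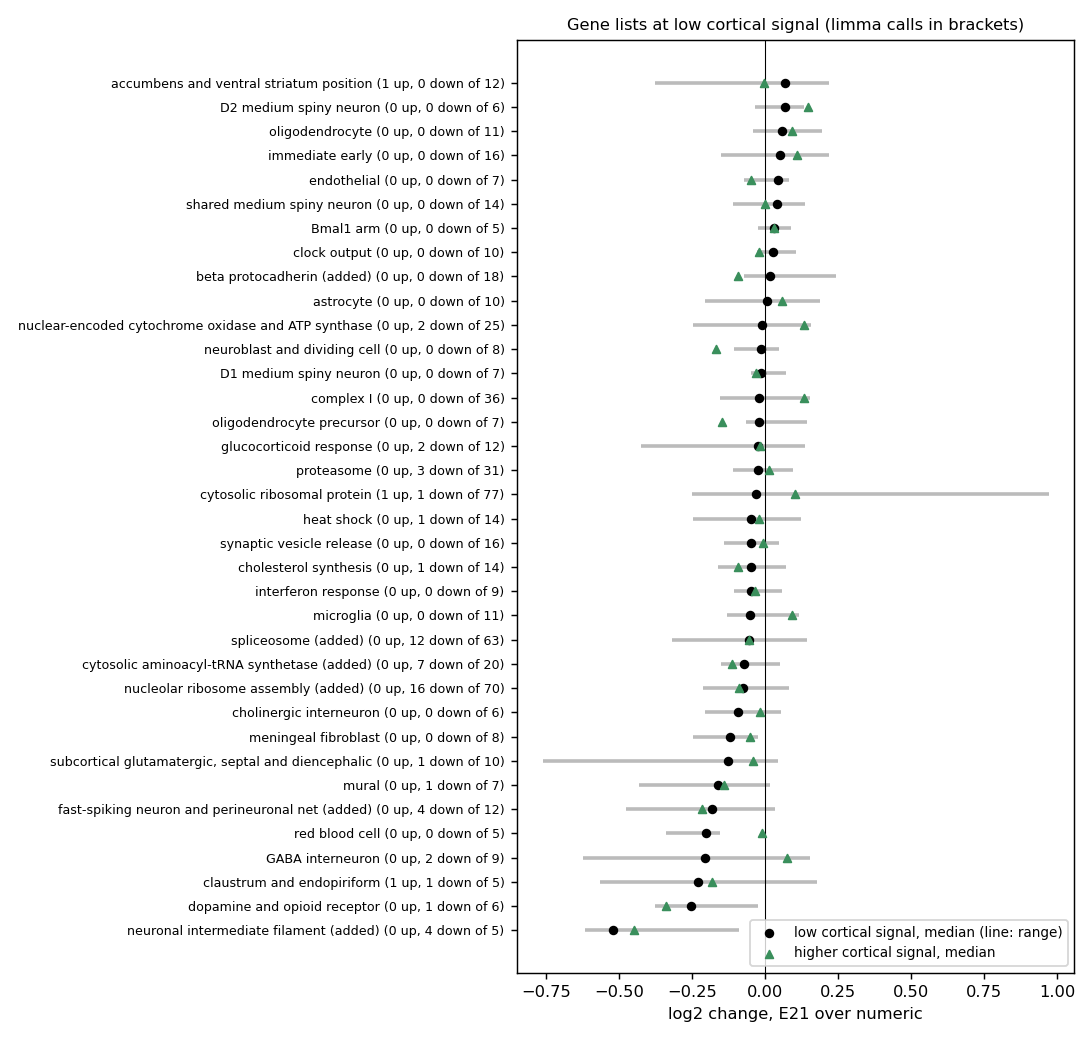
Median log2 change, E21 over numeric, of each gene list with at least 5 tested genes, other than the cortical list from which Slc17a7 chose the libraries, at low cortical signal (black points, grey line from lowest to highest member) and at higher cortical signal (triangles), with the number of genes called in each direction at low signal in brackets. Among the lists plotted, neuronal intermediate filament genes lie lowest at -0.52, and the medium spiny neuron lists lie between -0.01 and 0.07.

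The same comparison at higher cortical signal set 26 E21 libraries against 35 numeric libraries, none of them shared with the comparison above. There limma called 6629 of the 15282 genes (43.4%), 2042 higher (13.4%) and 4587 lower (30%). With median-of-ratios scaling 3269 were higher and 3241 lower, so this split depended on scaling too. Slc17a7 averaged 398 ± 180 CPM in E21 libraries (SD, n = 26) and 442 ± 218 CPM in numeric libraries (SD, n = 35). Of the 169 genes that rose at low cortical signal, 62 (36.7%) also rose there, and 141 (83.4%) had a positive change, as had 38.5% of all genes. Of the 512 that fell, 71.5% also fell, and 504 (98.4%) had a negative change, as had 61.5% of all genes. As shares of the higher-signal calls, the genes called in both were 3.0% of the rises and 8.0% of the falls.

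Rn45s rose by 1.60 (limma adjusted p = 1.15e-05) and Rps14-ps7 fell by 3.05 at higher cortical signal. Cox7a2l2 rose by 1.47, Rpl37 by 1.22, and Nefh, Nefm and Nefl fell by 0.45, 0.53 and 0.45. Pvalb (-0.09), Prph (-0.05), Klhl34 (-0.75) and Ybx1-ps20 (0.03) did not pass there. Akr1b10, Spopl and Zbtb33, which rose at low cortical signal, fell at higher cortical signal. Akr1b10 had a median of 33.1 CPM in E21 libraries and 41.1 CPM in numeric libraries there, a fall of 0.29 (limma adjusted p = 0.0210). Spopl, an adaptor of cullin ubiquitin ligases, rose by 0.20 at low signal and fell by 0.20 at higher signal, and Zbtb33, a zinc finger transcription factor, rose by 0.13 and fell by 0.11. These 3 genes were picked with their values known, and the tests of the difference itself gave limma adjusted p = 0.0683 for Akr1b10 and 0.0609 for both others.

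All genes gave more calls at higher cortical signal, 13.4% higher and 30% lower. There 17 of 36 complex I genes were higher and 2 lower, and 13 of 25 cytochrome oxidase and ATP synthase genes were higher and none lower. Of 77 ribosomal protein genes, 22 were higher and 4 lower, with a list median of 0.10 beside -0.05 for all genes. The share of these ribosomal protein genes called higher was larger than that of all genes. Their shares called lower and called in either direction were smaller. For the complex I list and the cytochrome oxidase and ATP synthase list, the shares called higher and called in either direction were larger. The share called lower was smaller in both. Whether the effect of identifier format differed between the 2 levels of cortical signal was tested in one limma fit over all 4 groups, and 1 gene passed, or 0.00654% of those tested, while 3279 genes had an unadjusted p under 0.05. That gene was Pcdhb5, a clustered protocadherin. The larger number of calls at higher cortical signal is therefore not shown to be a difference in effect.

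Within each identifier format the numbering subseries were compared. Between 32 libraries with identifiers starting E21DCD37 and 18 starting E21DCD36, limma called 0 of 15282 genes (0%), and 175 were at an unadjusted p under 0.05. Between 6 numeric libraries whose digits 10 to 12 read 049 and 11 that read 048, the same limma test called none (0 genes, 0%), and 518 were at an unadjusted p under 0.05. Rn45s differed by -0.25 and Nefh by -0.02 between the E21 subseries, and by 0.32 and -0.08 between the numeric subseries. The remaining numeric subseries of 4 libraries was not compared.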

How the data were processed

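The series holds polyA RNA-seq of the nucleus accumbens core. Per the submitters' processing notes, kallisto 0.48 was used for quantification. Genome build and the step from transcripts to genes: not given in the sources used here. For 38354 genes the authors deposited log2 values, which the values themselves show to be log2(expected count + 1) without scaling for library size. Symbols matched the RefSeq table of GRCr8 for 38278 genes. Values were turned back to expected counts and scaled to 1000000 per library (CPM), over totals of 15.7 to 53.4 M (M standing for 1000000), so 1 CPM stood for 15.7 to 53.4 expected counts. Tests used limma 3.58.1 in R 4.3.3 with an intensity trend, two-sided, on log2(CPM + 1), with Benjamini-Hochberg adjustment over 15282 genes at 0.05; fold changes on this scale understate changes of low genes. Library strand is not stated, so overlapping and antisense genes were not separated. Intervals of precision rest on the spread between libraries.

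The members, groups and gene lists were chosen with earlier results of these data known. By the rule for named genes, the text takes the 15 largest rises and 15 largest falls called (without locus-number symbols), the 12 and 12 largest among single protein-coding genes, and up to 4 members of each of 43 lists with the smallest p; 6 of these lists were added after the values were seen. The locus-number ribosomal RNA genes, Spopl, Zbtb33 and Pcdhb5 were named with their values known. Some genes the rule takes are left out of the text. On simulated data for this comparison, limma recovered 91 of 100 genes changed by 0.5 and 99 of 100 changed by 1, with 13 false calls among 15282. The simulation drew genes independently and with the same dispersion in both formats. In the real libraries spread was wider in the E21 format and genes moved together, so these rates need not hold there. Alternatives changed the scaling, pseudocount, filter, Slc17a7 limit, covariates, subseries and library weights. Python 3.11.15, numpy 2.4.6, pandas 2.3.3 and matplotlib 3.10.9 were used.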

Additional observations from a re-analysis of the deposited data

Results flagged for a closer look

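Cox7a2l2 was at 18.6 CPM in 1 of the 6 numeric libraries of subseries 049, and the next library stood at 5.44 CPM, a gap of 0.904 of the range. The 95% critical value for such gaps is passed by about 1 in 20 groups by chance, and 7 genes were looked at in each of 2 numeric subseries. This library sets the numeric maximum of Cox7a2l2 (18.6 CPM), and the highest library of subseries 048 stood at 18.4 CPM.

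Pcdhb5 was the only gene whose difference between the identifier formats itself differed between the 2 levels of cortical signal (log2 difference 0.75, SE 0.15, limma adjusted p = 0.0335). At low cortical signal it averaged 10.00 ± 2.39 CPM in E21 libraries (SD, n = 50) and 9.19 ± 2.45 CPM in numeric libraries (SD, n = 21). At higher cortical signal it averaged 6.55 ± 3.03 CPM in E21 libraries (SD, n = 26) and 10.03 ± 2.37 CPM in numeric libraries (SD, n = 35). Of 18 beta protocadherin genes tested, none was called at low cortical signal and 4 were lower in E21 libraries at higher cortical signal, below the 30% of all genes lower there.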

How the results depend on the processing

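No paired analysis was possible because the labels carry no replicate numbers. Against 681 genes called, of which 24.8% were higher, limma called 176 with Slc17a7 limited to under 100 CPM and 2 (Lypd6b and Rimkla, 0.0% higher) under 50 CPM, where fewer libraries were left, and 5758 with no limit. It called 277 with the cortical score as covariate, 427 with log2 depth, 1277 with oligodendrocyte and astrocyte scores and 1383 with Xist and Ddx3y levels. With E21DCD36 libraries alone it called 162 (13.0% higher), with E21DCD37 libraries alone 354, and with no filter on low genes 423. Median-of-ratios scaling gave 50.2% higher, quantile scaling 48.1%; median-of-ratios with the cortical score gave 249 calls, 64.3% higher. The interaction called 0 genes at a mean of at least 10 CPM (limma, 2629 at an unadjusted p under 0.05), a filter that leaves out Pcdhb5. The Pcdhb5 log2 change, positive but not called at low signal, was -0.0052 under 50 CPM of Slc17a7 and -0.17 with no limit. Among the 79 genes followed through these settings, no other changed direction. Some list members outside the 79 did. Cck (cholecystokinin), for example, stood at -0.62 without and 0.0068 with the cortical score, and neither estimate was called. Totals without rRNA genes, leaving out libraries over 50 M, median-of-ratios together with the cortical score, and the cortical score at higher signal were chosen after seeing the data; apart from the third, they kept their counts within 1.5 times. Of the same 79 genes, 40 kept their side of the threshold with the cortical score, 24 under 100 CPM, 63 with median-of-ratios scaling and 78 with the Xist and Ddx3y levels. The cause of these shifts was not tested. Depth limits genes near 1 CPM, and with no batch in the labels, batch and identifier format cannot be told apart.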
